A study of Sus scrofa with 14 samples.

Results

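Insulin signalling and glucose uptake in adipose tissue were followed through 9 genes listed by name, which were INSR, IRS1, IRS2, PIK3R1, AKT1, AKT2, FOXO1, SLC2A4 and SLC2A1. The genes were found in the count and TPM tables by the pig symbol of their Ensembl ID, and 7 of the 9 were present among the 21280 genes. SLC2A1 had no RNA values and was read in the Hi-C data alone, and AKT1 was not analysed here in either assay. Positions on Sscrofa11.1 were known for 8 of the 9.

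The tissue came from 2-year-old female pigs of 2 breeds, wild boar (WB) and Bama pig (BM), kept in single pens on 1 experimental farm under the same feeding. The wild boars were captured young, and the Bama pigs were of a line that was not inbred. The depots taken were the greater omentum (GOM), a visceral fat, and the upper layer of backfat (ULB), a subcutaneous fat. RNA-seq used here covered 2 libraries each of WB-GOM, WB-ULB and BM-GOM and 1 of BM-ULB, and Hi-C covered the same 7 combinations. Each library was 1 depot of 1 animal. The same animals, 2 of each breed, gave both depots, so libraries of the 2 depots were not from separate animals. No treatment separates the groups, and all animals were fasted before slaughter.

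Insulin binds the receptor tyrosine kinase encoded by INSR, which phosphorylates the adaptor proteins IRS1 and IRS2. These recruit phosphoinositide 3-kinase through its regulatory subunit p85 alpha, encoded by PIK3R1, and the lipid made there activates the AKT kinases. In fat cells AKT2 sends vesicles carrying the glucose transporter GLUT4, encoded by SLC2A4, to the cell surface, and AKT also keeps the transcription factor FOXO1 out of the nucleus. SLC2A1 encodes GLUT1, the transporter of basal glucose uptake.

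Library totals lay between 10833153 and 18627076 estimated counts. Adipocyte markers were high in all 7 libraries, with summed levels of 9841 to 18683 TPM over 7 genes. The library of wild boar ULB replicate 1 held skeletal muscle transcripts, at 443 TPM summed over 5 muscle genes against 2.88 to 11.8 TPM in the other 6 libraries. Erythroid transcripts, mostly HBB, separated the breeds, with sums of 1970 to 12634 TPM in wild boar (highest in GOM, at 7933 and 12634) and 173 to 1430 TPM in Bama pigs, and 4 of the 5 genes did not overlap between breeds. Liver genes ran the other way, at 186 to 258 TPM in wild boar and 261 to 1401 TPM in Bama pigs over 7 genes, of which 5 did not overlap between breeds. Over all genes the breeds did not overlap on log2 CPM for 11.3%, in one direction or the other. Mesothelial sums were 119 to 456 TPM in GOM and 3.00 to 17.1 TPM in ULB over 4 genes. In bulk tissue, fewer cells of a type and less RNA per cell cannot be told apart.

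AKT2 was the most abundant of the 7 measured members by mean TPM, a level scaled for transcript length, at 136 ± 42.5 (SD, n = 7). PIK3R1 followed at 118 ± 64.0 TPM, then FOXO1 at 49.5 ± 29.3, SLC2A4 at 49.5 ± 26.4, INSR at 38.0 ± 7.04, IRS2 at 34.7 ± 10.5 and IRS1 at 8.79 ± 3.07. AKT2 and PIK3R1 differed by less than their spread over libraries, and so did FOXO1, SLC2A4, INSR and IRS2 among themselves. IRS1, the adaptor with the lowest level, stayed below every other member except SLC2A4 in BM-ULB. IRS2 made up 71.8% to 89.1% of the summed TPM of the insulin receptor substrates in the table, and PIK3R1 made up 86.9% to 96.9% of that of the 3 regulatory subunits PIK3R1, PIK3R2 and PIK3R3.

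**Figure D1:**
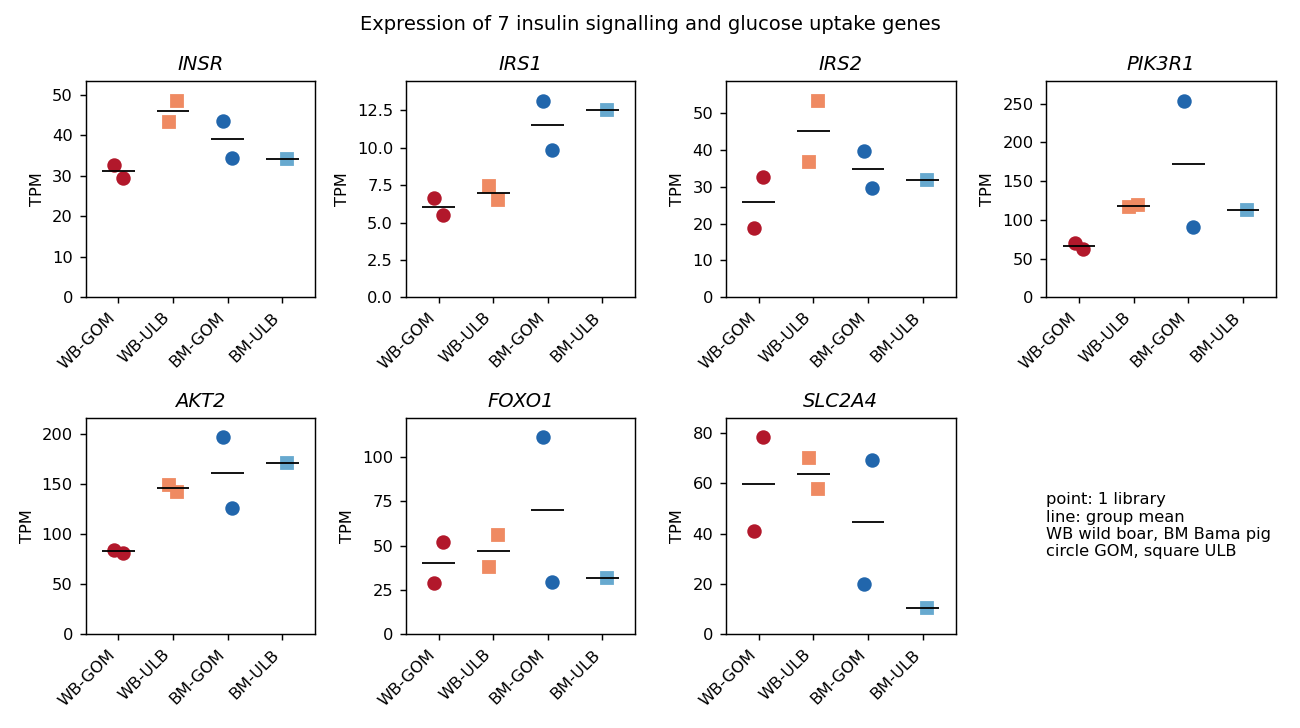
TPM of the 7 measured members (vertical axes from 0, different scales) by breed and depot, with 1 point per library and a line at the group mean. SLC2A4 ranged from 10.3 TPM in BM-ULB to 78.3 TPM in WB-GOM, and IRS1 was higher in all 3 Bama pig libraries than in all 4 wild boar libraries.

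The first comparison set the visceral GOM (4 libraries) against the subcutaneous ULB (3 libraries), with breed as a covariate. The same animals gave both depots, and the fit held no term for the animal, so its errors and p-values did not use that pairing. None of the 7 members passed an adjusted p below 0.05 together with an absolute log2 fold change above 1 in edgeR's quasi-likelihood test. Across all genes 615 of 16949 passed (3.63%), 400 of them higher in GOM, and this count ran from 230 to 656 as each library was left out. It was 230 without the BM-ULB library, 254 without WB-ULB replicate 1, 329 without WB-ULB replicate 2 and 345 without WB-GOM replicate 1. The 5 members from the receptor to the kinase had negative values (lower in GOM) and FOXO1 and SLC2A4 positive ones. The median over the members was -0.32, beside 0.049 over all genes.

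INSR, the receptor, was at 32.6 and 29.6 TPM in WB-GOM, 43.3 and 48.6 in WB-ULB, 43.5 and 34.5 in BM-GOM and 34.3 in BM-ULB. Within wild boar both ULB libraries lay above both GOM libraries, and over the 2 breeds the depots overlapped. The log2 fold change of GOM against ULB was -0.32 ± 0.22 (SE, adjusted p = 0.445 in edgeR). INSR had the narrowest range of the 7 members, 1.64-fold from its lowest to its highest library.

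IRS2, the more abundant of the 2 adaptors, was at 18.8 and 32.6 TPM in WB-GOM, 36.6 and 53.3 in WB-ULB, 39.7 and 29.7 in BM-GOM and 31.9 in BM-ULB. The depots overlapped, with the lowest library in WB-GOM and the highest in WB-ULB. The log2 fold change between depots was -0.46 ± 0.29 (adjusted p = 0.406 in edgeR). It was -0.24 without WB-GOM replicate 1, -0.75 without WB-GOM replicate 2 and -0.77 with each library's trend with GC content taken out, and was not called in any of these.

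PIK3R1 was at 69.5 and 62.8 TPM in WB-GOM, 117 and 120 in WB-ULB, 254 and 90.9 in BM-GOM and 112 in BM-ULB. BM-GOM replicate 1 stood above all other libraries, and the remaining 3 GOM libraries lay below the 3 ULB libraries. The fold change between depots was -0.33 ± 0.35 on the log2 scale (adjusted p = 0.642 in edgeR). It was -0.65 without BM-GOM replicate 1, -0.64 without the BM-ULB library and -0.20 without BM-GOM replicate 2. With a block for the replicate number within breed it was -0.65 ± 0.29 (adjusted p = 0.24 in edgeR).

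AKT2, the kinase that drives GLUT4 vesicles to the surface, was at 84.2 and 81.3 TPM in WB-GOM, 149 and 142 in WB-ULB, 197 and 126 in BM-GOM and 171 in BM-ULB. Both wild boar GOM libraries were the lowest of the 7, and BM-GOM replicate 1 was the highest, so the depots overlapped. On log2 CPM scaled by TMM, GOM lay below ULB by 0.58 in wild boar and by 0.61 in Bama pigs. The depot fold change was -0.58 ± 0.26 (adjusted p = 0.256 in edgeR), and it lay between -0.68 and -0.50 as each library was left out.

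Within wild boar alone, INSR, PIK3R1 and AKT2 were lower in both GOM libraries than in both ULB libraries on log2 CPM, where the 2 depots did not overlap, in one direction or the other, for 53.0% of all genes tested. The log2 fold changes were -0.62 ± 0.27 for AKT2 (adjusted p = 0.250 in edgeR) and -0.65 ± 0.25 for PIK3R1 (adjusted p = 0.211). No member passed, whereas 318 of 16183 genes did (1.97%), a count of 46 to 258 with 1 of the 4 libraries left out and lowest without WB-GOM replicate 1. Without WB-ULB replicate 1, the library with muscle transcripts, AKT2 stayed negative between depots in the fit of all libraries.

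FOXO1, the transcription factor restrained by AKT, was at 28.7 and 51.9 TPM in WB-GOM, 38.1 and 55.9 in WB-ULB, 111 and 29.3 in BM-GOM and 31.7 in BM-ULB. Libraries of 1 breed and depot differed by up to 3.8-fold, and BM-GOM replicate 1 was again the highest. The depot fold change of 0.29 ± 0.44 on the log2 scale (adjusted p = 0.756 in edgeR) turned to -0.14 without that library.

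SLC2A4, which encodes the insulin-responsive GLUT4, was at 41.1 and 78.3 TPM in WB-GOM, 69.9 and 57.6 in WB-ULB, 20.0 and 69.2 in BM-GOM and 10.3 in BM-ULB. The lowest levels were in Bama pig libraries, in BM-ULB and BM-GOM replicate 1, while BM-GOM replicate 2 lay among the wild boar libraries. SLC2A4 had the widest range of the members, 7.57-fold. Its depot fold change was 0.71 ± 0.53 on the log2 scale (adjusted p = 0.485 in edgeR). It was 0.15 without the BM-ULB library, 0.25 without BM-GOM replicate 2 and 1.13 without WB-GOM replicate 1, and 0.41 with the GC trend taken out.

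The second comparison set wild boar (4 libraries) against Bama pig (3 libraries), with depot as a covariate. These libraries came from 2 animals of each breed, and the fit held no term for the animal. Its errors and p-values therefore counted the depots of 1 animal as separate. None of the 7 members passed in edgeR. Across all genes 58 of 16949 passed (0.342%), a count that was 1 without the BM-ULB library and 1804 without BM-GOM replicate 2. It was 15 without WB-ULB replicate 1, 19 without WB-GOM replicate 2, 27 without WB-ULB replicate 2 and 105 without WB-GOM replicate 1. DESeq2 called 1128 genes (6.66%), SLC2A4 among them. Liver and erythroid transcripts also differed between the breeds, as ALB, the liver's albumin, was at 77.7 to 873 TPM in Bama pigs and at 1.95 to 6.60 TPM in wild boar. Their part in the breed values of the members was not tested.

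SLC2A4 had the largest breed difference of the members. Its mean level was 61.7 ± 16.2 TPM in wild boar (SD, n = 4 libraries) and 33.2 ± 31.6 TPM in Bama pigs (n = 3 libraries). Each set came from 2 animals, and the breeds overlapped through BM-GOM replicate 2. The log2 fold change of wild boar against Bama pig was 1.57 ± 0.54 (adjusted p = 0.157 in edgeR), and DESeq2 gave 1.58 ± 0.49 (adjusted p = 0.0256). It was positive with each library left out, between 1.02 without the BM-ULB library and 2.39 without BM-GOM replicate 2, and the latter passed the call (adjusted p = 0.0131 in edgeR). Within GOM alone the value was 1.02 ± 0.66 (adjusted p = 0.675 in edgeR). It was 0.30 without WB-GOM replicate 2, 0.35 without BM-GOM replicate 1 and 2.29 without BM-GOM replicate 2, and none of these was called. Of 16615 genes 4 passed in GOM (0.0241%). That count was 0 without either BM-GOM library, 70 without WB-GOM replicate 2 and 115 without WB-GOM replicate 1.

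Trends with transcript length differed between libraries. BM-GOM replicate 1 and the BM-ULB library, where SLC2A4 was low, had higher values for long transcripts (Spearman's rho of 0.307 and 0.153 between transcript length and a gene's deviation from its mean over libraries, across 12295 genes, which are not independent replicates). WB-GOM replicate 2, where SLC2A4 was highest, had a rho of -0.301, and the remaining 4 libraries lay between -0.134 and 0.007. The longest RefSeq transcript of SLC2A4 has 2441 bases, the shortest among the measured members, whose others run from 5117 to 13328 bases. Whether transcript length played a part in the SLC2A4 levels was not tested. With each library's trend with transcript length taken out, the breed difference of SLC2A4 was 1.45 ± 0.52 (adjusted p = 0.239 in edgeR), and with the trend with GC content taken out it was 1.45 ± 0.58 (adjusted p = 0.258). Without WB-ULB replicate 1, the library with muscle transcripts, it was 1.43 ± 0.53 (adjusted p = 0.274).

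IRS1, the less abundant adaptor, was at 6.62 and 5.49 TPM in WB-GOM, 7.44 and 6.50 in WB-ULB, 13.1 and 9.86 in BM-GOM and 12.5 in BM-ULB. All 3 Bama pig libraries lay above all 4 wild boar libraries, the only measured member of which this held. On log2 CPM the same non-overlap was found for 11.3% of all genes, in either direction. The liver genes ALB, TTR, SERPINA1, FGB and AHSG were higher in the same 3 libraries, while the liver genes APOA1 and TF overlapped between breeds. The log2 fold change of wild boar against Bama pig was -0.59 ± 0.25 (adjusted p = 0.213 in edgeR), and it stayed negative in all alternatives run, between -0.80 and -0.33. Between depots IRS1 was at -0.24 ± 0.25 (adjusted p = 0.623), with a value of -0.012 without the BM-ULB library and -0.52 with the GC trend taken out.

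The other members showed smaller breed values relative to their errors. In edgeR they were -0.48 ± 0.35 for PIK3R1 and -0.35 ± 0.26 for AKT2. They were 0.28 ± 0.22 for INSR, 0.27 ± 0.29 for IRS2 and 0.09 ± 0.44 for FOXO1, with adjusted p of 0.450 to 0.926 over these 5 genes. Direction depended on the scale for 3 of them. On log2(TPM + 1) the median of all genes was -0.22, and INSR was at -0.022, IRS2 at -0.089 and FOXO1 at -0.12. Within GOM, INSR was lower in wild boar in TPM but higher in TMM-scaled counts, at 0.27 ± 0.35 (adjusted p = 0.825 in edgeR), while the median of all genes was -0.41 on log2(TPM + 1).

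**Figure D2:**
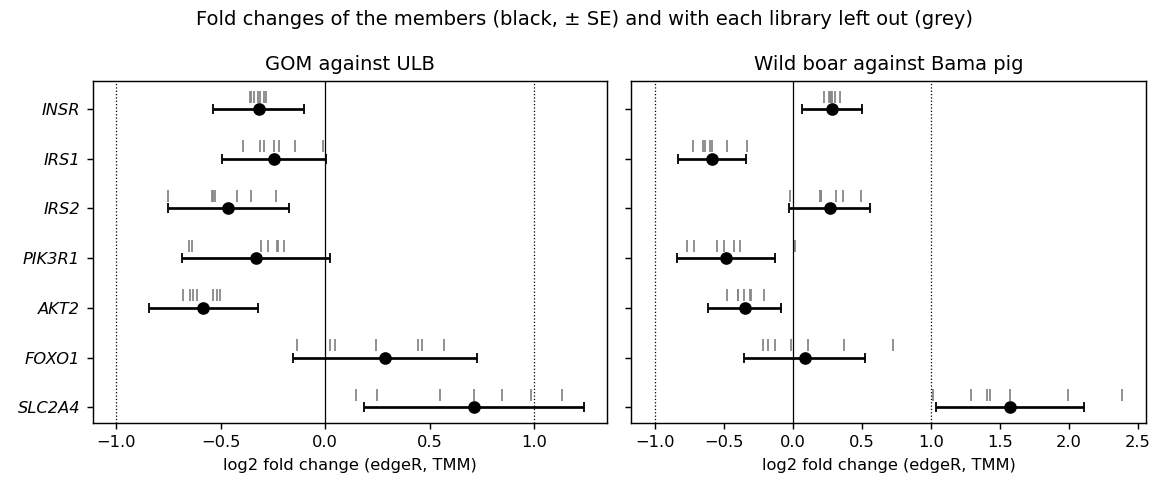
Log2 fold changes from edgeR for GOM against ULB (left) and wild boar against Bama pig (right), with the SE as bars and 1 grey tick for each fit without 1 library. Dotted lines mark an absolute log2 fold change of 1, which SLC2A4 exceeded between breeds at 1.57 ± 0.54 without passing the adjusted p.

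The breed difference was then compared between depots by an interaction term. No gene of 16949 passed in edgeR (0%), 841 had an unadjusted p below 0.05, and DESeq2 called 49. The interaction was largest for SLC2A4 among the members, at -1.47 ± 0.98 on the log2 scale (adjusted p = 0.970 in edgeR), with values of -2.16 to -0.22 as libraries were left out, and rested on the single BM-ULB library.

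Each member was also set beside the genes whose log2(TPM + 1) followed it most closely over the 7 libraries, out of 10142 genes with at least 1 TPM in every library. Pearson's r is a description here, since the points share depth and library composition. SLC2A4 lay closest to GAPDH (r = 0.997), a glycolytic enzyme, MICOS13 (r = 0.994), a mitochondrial inner membrane protein, and PSMB7 (r = 0.993), a proteasome subunit. GAPDH was at 621 TPM in BM-GOM replicate 1 and 394 TPM in BM-ULB, and at 1101 to 1786 TPM in the other 5 libraries. It was picked for its r over these 7 libraries, so sharing the low libraries of SLC2A4 follows from that choice.

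AKT2 lay closest to RBM27 (r = 0.994), PGGT1B (r = 0.992) and RPS6KB1 (r = 0.991), the last of which encodes the S6 kinase acting further down the same pathway. INSR lay closest to OGN (r = 0.997), AHCYL1 (r = 0.994) and HECTD2 (r = 0.980). IRS1 lay closest to MED12L (r = 0.998), SPATA6 (r = 0.995) and ENC1 (r = 0.992). The adaptor IRS2 lay closest to TGDS and ATOSA (both r = 0.968) and CREBRF (r = 0.964). PIK3R1 lay closest to B3GLCT (r = 0.987), MED19 (r = 0.985) and GORASP2 (r = 0.984), and FOXO1 to NT5E (r = 0.981), ZHX3 (r = 0.971) and SARNP (r = 0.968). Among the members themselves PIK3R1 and AKT2 ran most alike (r = 0.899), and IRS1 and SLC2A4 most apart (r = -0.777).

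A further 85 genes of the pathway were taken as background to the members, of which 83 were in the tables and 82 were tested. Between depots 1 of the 82 was called, against 3.63% of all genes. This was PRKCZ, an atypical protein kinase C downstream of phosphoinositide 3-kinase, at 7.11 to 12.2 TPM in the 4 GOM libraries and 1.02 to 1.34 TPM in the 3 ULB libraries. The depots did not overlap, as was so for 14% of all genes, and the log2 fold change was 2.93 ± 0.34 (adjusted p = 0.00182 in edgeR). Of 4 mesothelial genes 3 lay higher in every GOM library than in every ULB library, and KRT18 overlapped. KRT8 was at 89.2 to 363 TPM in GOM and at 2.54 to 10.6 TPM in ULB. The part of mesothelial genes in the PRKCZ value was not tested.

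Other pathway genes did not overlap between depots in TMM-scaled counts, as was so for 14.0% of all genes, but missed the call. RHOQ, which encodes TC10, a small GTPase of GLUT4 vesicle trafficking, was at 118 to 412 TPM in GOM and 307 to 383 TPM in ULB. Its TPM ranges overlapped, and its log2 fold change was -1.06 ± 0.26 (adjusted p = 0.0580 in edgeR). SESN3, a sestrin controlled by FOXO factors, was at -0.87 ± 0.26 (adjusted p = 0.0979 in edgeR). PIK3CD, a catalytic subunit of the lipid kinase found mainly in leukocytes, was at 1.06 ± 0.37 (adjusted p = 0.153). Lymphocyte markers summed to 42.2 to 62.7 TPM in GOM and 22.3 to 28.9 TPM in ULB over 6 genes, and macrophage markers to 536 to 1263 TPM in GOM and 389 to 585 TPM in ULB over 6 genes. Of each list 2 genes did not overlap between depots, and their part in the PIK3CD value was not tested. GRB10, an adaptor that dampens the receptor, was at 0.93 ± 0.34 (adjusted p = 0.176), and INPPL1, a lipid phosphatase, at 0.39 ± 0.23 (adjusted p = 0.370). In the list of other FOXO factors and FOXO targets, 10 of 11 genes had positive values (higher in GOM) with a median of 0.58, and none was called. The median over all genes was 0.049, and 53 of the 82 pathway genes tested were positive. Among the 10, FOXO4 at 0.041 ± 0.25, TXNIP at 0.073 ± 0.38 and PDK4 at 0.14 ± 1.00 lay within their errors of 0. FOXO6 reached at most 0.28 TPM, and IGFBP1 was at 0 TPM in ULB.

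Between breeds none of the 82 pathway genes was called, against 0.342% of all genes. HK1, hexokinase 1, which traps glucose in the cell as glucose 6-phosphate, had a log2 fold change of 0.97 ± 0.26 (adjusted p = 0.116 in edgeR). Its libraries did not overlap between breeds in TMM-scaled counts, as was so for 11.3% of all genes. Its TPM ranges did overlap, at 63.8 to 111 in wild boar and 37.1 to 76.9 in Bama pigs. STX4, the membrane SNARE that receives GLUT4 vesicles, was at 0.56 ± 0.28 (adjusted p = 0.280), and LNPEP, an aminopeptidase carried on those vesicles, at -0.66 ± 0.28 (adjusted p = 0.216). The list of other glucose transporters had 6 of 8 tested genes with positive values (higher in wild boar), a median of 0.49 and no call. The median over all genes was -0.013, and 43 of the 82 pathway genes tested were positive.

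Chromatin around the 8 placed members was read from the Hi-C compartment value (PC1) of 20-kb bins, where positive values mark compartment A, the gene-rich and mostly active part of the nucleus, and negative values compartment B. At the start site 7 of the 8 members were positive in all 7 libraries, beside 78.5% of 13094 genes. SLC2A1 was positive in 6 and at -0.82 in BM-GOM replicate 2. No member had opposite signs in the 2 breeds within a depot, a pattern seen at 1.59% of genes in GOM and 2.29% in ULB. The GOM share set 2 libraries against 2 and the ULB share 2 against 1, so the shares cannot be compared between depots. Over the bins of the whole gene the mean was positive for all 8 members in all 7 libraries.

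PC1 has no unit, and levels are compared only within a chromosome. AKT2 and SLC2A1 share chromosome 6, where AKT2 was at 48.4 to 60.8, above 78.6% of the genes of the chromosome by mean, and SLC2A1 at -0.82 to 20.7, above 16.2%. FOXO1 and IRS2 share chromosome 11, where FOXO1 was at 29.8 to 37.3 and IRS2 at 15.8 to 25.8. PIK3R1 was at 28.6 to 34.3, above 84.6% of the genes of chromosome 16, and SLC2A4 at 31.7 to 37.5, above 93.4% of those of chromosome 12. IRS1 was at 5.22 to 13.7, above 20.9% of the genes of chromosome 15.

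**Figure D3:**
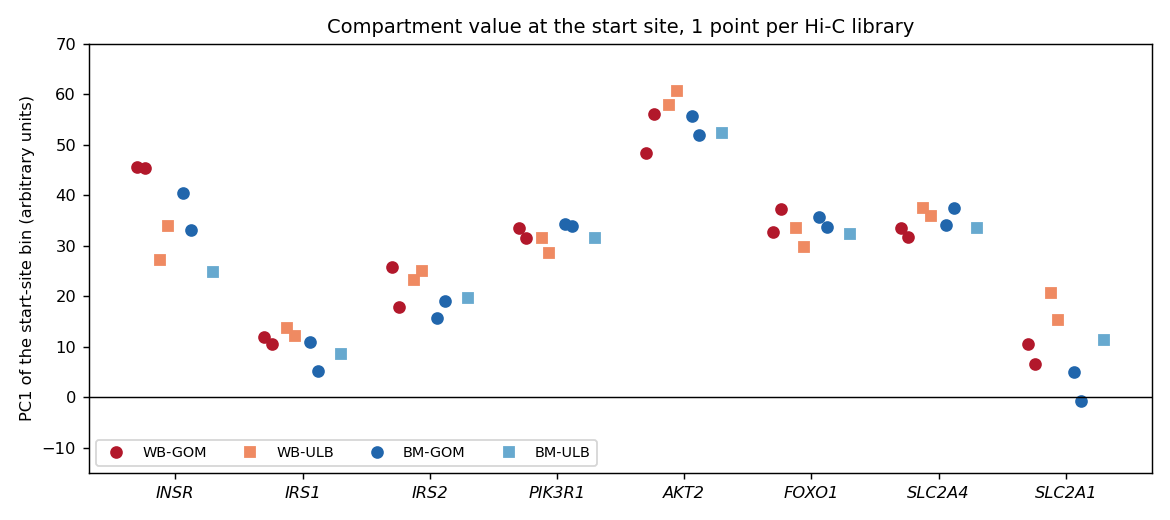
PC1 of the 20-kb bin holding each start site (vertical axis, arbitrary units), with 1 point per Hi-C library, coloured by breed and shaped by depot. All points lie above 0 except SLC2A1 in BM-GOM replicate 2 at -0.82, and INSR has the largest difference between the depot means, 41.1 in GOM and 28.6 in ULB.

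Between depots no start-site bin of a member passed an adjusted p below 0.05 in limma, beside 1.08% of 13094 genes and 2.3% of 113298 bins. The bin count of 2609 was 0 without WB-ULB replicate 1, 0 without the BM-ULB library and 144 to 700 without any other single library. INSR came closest. Its start-site PC1 was 45.5 and 45.4 in WB-GOM, 27.3 and 33.9 in WB-ULB, 40.5 and 33.2 in BM-GOM and 24.8 in BM-ULB. Each breed had GOM above ULB, and over both breeds BM-GOM replicate 2 and WB-ULB replicate 2 overlapped narrowly. The GOM minus ULB difference was 13.8 ± 2.97 (adjusted p = 0.0504 in limma), and it was 11.8 to 15.2 with adjusted p of 0.0761 to 0.194 as each library was left out.

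The difference extended over the INSR gene. In all 8 of its bins, which are neighbours and not independent, the depot difference was positive, from 9.89 to 14.8. Of the 8, 2 passed in limma, with a lowest adjusted p of 0.0361, beside 2.3% of all bins. Neither call held without WB-ULB replicate 1 or without the BM-ULB library, where no bin of any chromosome passed. All 4 GOM libraries lay above all 3 ULB libraries in 7 of the 8 bins, the start-site bin being the exception. The margin was narrow in some, as at 100 kb after the start-site bin. There BM-GOM replicate 2 was at 32.4 and WB-ULB replicate 2 at 31.9. Averaged over the gene, PC1 was 38.6 in GOM and 26.9 in ULB, and the libraries of the 2 depots did not overlap, as was so for 17.9% of 13094 genes in one direction or the other. FOXO1 was the only other member of which this held, at 34.6 in GOM and 32.5 in ULB. Transcript levels of INSR did not follow this order, with a log2 fold change of -0.32 ± 0.22 for GOM against ULB. Between breeds the start-site PC1 of INSR differed by 7.50 ± 2.97 (wild boar minus Bama pig, adjusted p = 0.366 in limma), and none of its 8 bins passed, beside 0.00971% of all bins. That breed count of 11 bins was 1523 without the BM-ULB library and 6 or 7 without WB-GOM replicate 1, WB-ULB replicate 1 or BM-GOM replicate 2.

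SLC2A1 ran the other way. Its start-site PC1 was 10.5 and 6.65 in WB-GOM, 20.7 and 15.3 in WB-ULB, 4.90 and -0.82 in BM-GOM and 11.2 in BM-ULB. All 4 GOM libraries lay below all 3 ULB libraries, with a difference of -9.32 ± 2.82 (adjusted p = 0.111 in limma). At the start site the depots did not overlap for 14.5% of genes, in one direction or the other, and among the members this held for SLC2A1 and for PIK3R1, which was at 33.4 in GOM and 30.5 in ULB. The start site lies on a slope from compartment B to compartment A, as bins 100 kb before it were negative in all 7 libraries and bins 100 kb after it positive in all 7. At their start sites the remaining 6 placed members had depot differences of -3.66 to 2.95 (adjusted p of 0.540 to 0.830 in limma). Inside the IRS1 gene the differences ran from -11.3 to 1.39, and none of its 4 bins passed. Within 500 kb of the start site 4 of 51 bins passed for IRS1, 2 of 51 for INSR and 1 of 51 for IRS2. None passed there for the other placed members, beside 2.3% of all bins.

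**Figure D4:**
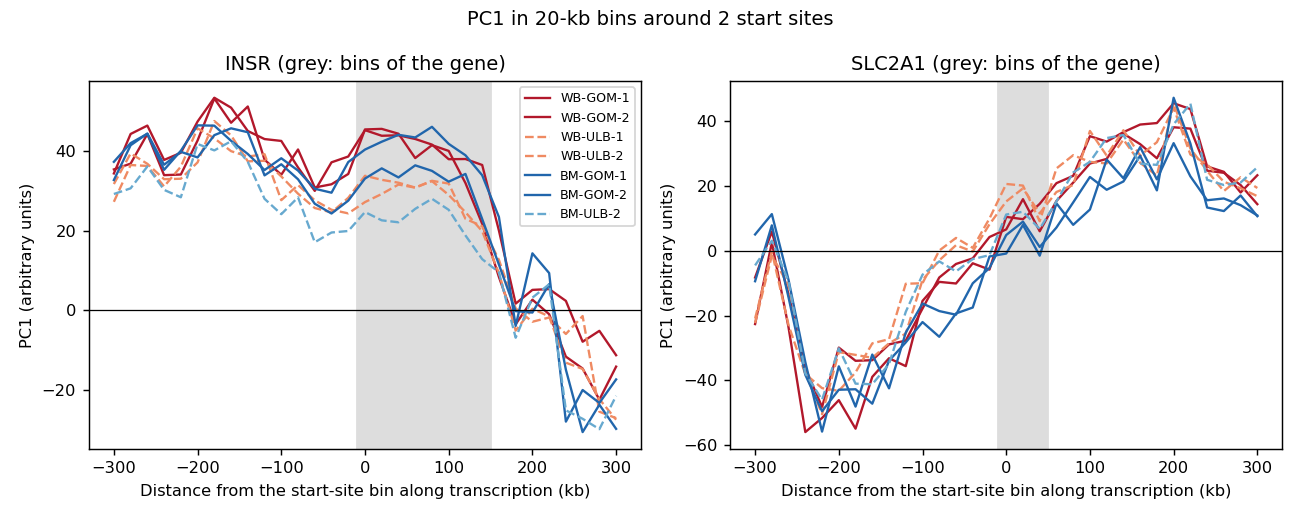
PC1 (vertical axes, arbitrary units) in 20-kb bins within 300 kb of the start-site bin of INSR (left) and SLC2A1 (right), along the direction of transcription, with 1 line per library, solid for GOM and dashed for ULB. GOM lines run above ULB lines in 7 of the 8 bins of INSR and cross narrowly at its start site, with differences of 9.89 to 14.8 over the gene, and at the SLC2A1 start site they run below, at -9.32 ± 2.82.

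The sequences of these 2 start regions are given because their compartment value moved most between depots. Each is the 250 bases before the RefSeq gene start on Sscrofa11.1, read 5′ to 3′ on the strand of the gene, the plus strand for both. The first is chr2:71796959-71797208 and the second chr6:168535148-168535397. Capitals mark matches on either strand to TGTTTAC, a FOXO binding motif, and to GGGCGG, the GC box. No match in these windows overlapped a match to the other motif.
INSR: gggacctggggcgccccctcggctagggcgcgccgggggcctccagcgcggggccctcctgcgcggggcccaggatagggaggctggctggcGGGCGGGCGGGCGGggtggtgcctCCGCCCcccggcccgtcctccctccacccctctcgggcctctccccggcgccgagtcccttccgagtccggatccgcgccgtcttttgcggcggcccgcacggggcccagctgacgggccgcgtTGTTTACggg
SLC2A1: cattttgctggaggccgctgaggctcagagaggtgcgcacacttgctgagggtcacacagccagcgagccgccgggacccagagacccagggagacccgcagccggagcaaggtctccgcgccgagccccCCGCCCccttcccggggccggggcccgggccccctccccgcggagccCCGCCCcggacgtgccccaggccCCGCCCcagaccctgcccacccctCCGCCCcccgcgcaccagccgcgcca

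Both windows are GC-rich, at 80.0% for INSR and 78.0% for SLC2A1, beside a median of 58.0% over 18683 promoters. INSR was the only placed member with the FOXO motif in its window, where it ends 4 bases before the gene start. The motif is found in 2.26% of those promoters. A RefSeq gene start need not be the start used in fat, so the window of a member may miss its promoter. Each of the windows holds 4 matches to the GC box, 3 of those in INSR overlapping in 1 run, and 46.1% of promoters hold at least 1. A match is a description of the letters and not of binding.

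Topologically associating domains (TADs), stretches of chromosome whose parts contact each other more than their surroundings, had been called by the authors once per breed and depot on merged replicates, so they carry no replicate error. IRS2 and FOXO1 had the same TAD in all 4 lists, of 800 kb and 840 kb. For IRS1, PIK3R1 and SLC2A1 the ends moved by at most 20 kb. Between breeds both TAD ends were matched within 40 kb for 7 of the 8 members in GOM, beside 57.5% of 13094 genes, and for 5 of 8 in ULB, beside 59.6%. Between depots they were matched for 6 of 8 in wild boar, beside 54.5%, and for 5 of 8 in Bama pigs, beside 51.4%.

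INSR was the member whose TAD followed the depot. In both GOM lists its start site lay in a TAD of 620 kb (chr2:71400001-72020000), 223 kb from the nearer end. In WB-ULB it lay in a TAD of 240 kb (chr2:71780001-72020000), 17.2 kb from the end, and in BM-ULB it lay in no TAD, 2.8 kb from the nearest one. Both distances are shorter than a 20-kb bin. The GOM TAD held the start sites of 14 placed genes, INSR included, and the WB-ULB TAD that of INSR alone.

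AKT2 had a TAD of 320 kb in WB-GOM and BM-ULB, of 240 kb in WB-ULB and of 800 kb in BM-GOM. In the WB-ULB and BM-GOM lists the TAD began inside the gene, 20.5 kb from its start site. SLC2A4 had a TAD of 380 kb in 3 lists and of 860 kb in BM-ULB. Its lowest transcript level was in BM-ULB, from 1 RNA library. BM-GOM replicate 1 was also low, at 20.0 TPM, in a group with the 380-kb TAD. A link between TAD and transcript level was not tested. PIK3R1 was the only member whose TAD ended inside the gene in all 4 lists, 65.2 kb from the start site.

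**Figure D5:**
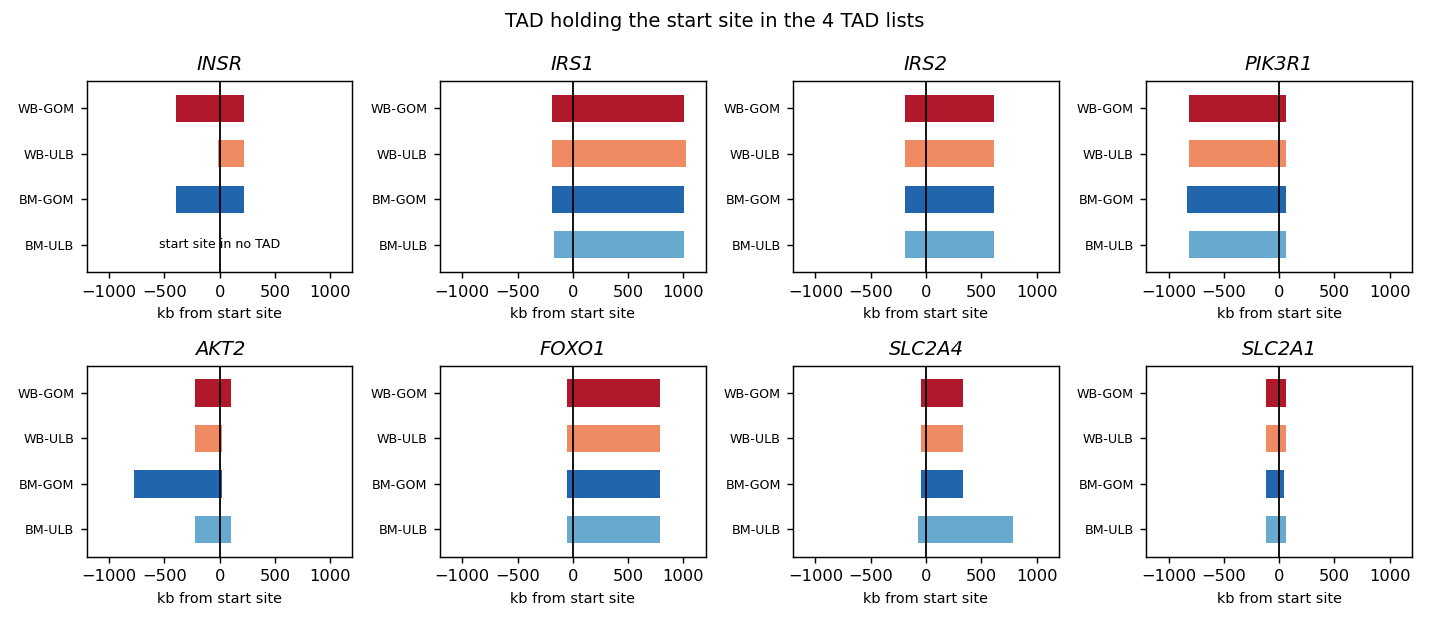
Extent of the TAD holding the start site of each placed member in the 4 TAD lists (horizontal axes, kb from the start site along transcription, 1 bar per list). INSR sits inside a TAD of 620 kb in both GOM lists and at or outside a TAD end in both ULB lists, while IRS2 and FOXO1 have the same bar in all 4.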

How the data were processed

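RNA-seq and Hi-C were analysed in 7 libraries each. Per the labels and the study's methods, RNA was depleted of ribosomal RNA and the authors quantified transcripts with kallisto (0.43.0 in the submitters' processing notes) on Sscrofa11.1. They deposited estimated counts and TPM per gene, PC1-like compartment scores per 20-kb bin (centred at 0 on each of 18 autosomes) from normalized contact matrices, and a TAD list for each breed and depot from merged replicates. The compartment file is named for an A-B index, and its values were read here as PC1.

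Expected (estimated) counts, as deposited, were rounded and tested with edgeR 4.0.16 (TMM, quasi-likelihood, Benjamini-Hochberg) in R 4.3.3, on genes with TPM above 0.1 in both libraries of at least 1 group. Genes were called at an adjusted p below 0.05 if the log2 fold change also exceeded 1 in size. Standard errors are the absolute log2 fold change divided by the square root of F. PC1 was tested with limma 3.58.1 over 113298 bins. DESeq2 1.42.0, limma on log2(TPM + 1), other filters, upper-quartile scaling, the replicate block and leaving out each library were alternatives, and corrections for transcript length and GC content (lowess offsets) were added after seeing the data. Tests on simulated data covered edgeR between depots and between breeds, the trend correction between breeds, and limma on PC1 between depots. The other fits were not tested in this way.

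Gene positions, transcripts and sequences came from RefSeq on Sscrofa11.1 by symbol. TPM gives levels, and fold changes are of counts. Estimated counts of the members ran from 260 to 11483 per library, so counting error was small beside the spread between libraries. The replicates of a group are separate animals, and the 2 depots share them. The main fits held no term for the animal. Named were all members, pathway genes that were called or, failing 3 per direction, the non-overlapping ones with the largest fold change (mean TPM of at least 1), and the 3 genes most like each member. Some pathway genes that this rule named are not reported here. The members and lists were chosen with earlier results of these data known.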

Additional observations from a re-analysis of the deposited data

Results flagged for a closer look

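The PC1 of SLC2A4 at its start site moved in opposite directions between depots in the 2 breeds. GOM minus ULB was -4.16 in wild boar, where both GOM libraries (33.5 and 31.7) lay below both ULB libraries (37.5 and 36.0), and 2.32 in Bama pigs, where both GOM libraries (34.0 and 37.5) lay above the single ULB library (33.4), so the breeds differed by -6.48. The difference was not tested. On log2 CPM in RNA, the Bama pig GOM libraries did not overlap the single ULB library for 66.8% of 16949 genes, in either direction. The share of genes with opposite directions in PC1 was not counted. AKT2 also had opposite signs, at -7.09 in wild boar, where GOM lay below ULB, and 1.48 in Bama pigs, where the depots overlapped. No breed and depot group had more than 2 libraries, so single libraries were not screened as outliers.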

How the results depend on the processing

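With 2 libraries a group and 1 for BM-ULB, counts of calls depended on the tool and on single libraries, and the cause was not tested. DESeq2 called 1348 genes between depots, 1128 between breeds, 49 for the interaction, 167 between breeds in GOM and 1318 between depots in wild boar, against 615, 58, 0, 4 and 318 in edgeR. With no filter the counts were 999, 503, 7, 26 and 608. On log2(TPM + 1) limma called 103 between breeds (15 higher in wild boar, 88 lower, against 15 and 43 in edgeR), 19 for the interaction and 0 between breeds in GOM. In wild boar it called 112 genes higher in GOM and 195 lower, against 197 and 121. This scale moved the median of all genes to -0.22 between breeds and -0.41 within GOM, and upper-quartile scaling moved it to -0.14. Taking out the length trend left 30 calls between breeds and 2 in GOM, and taking out the GC trend 18, 0 and, between depots in wild boar, 169, from fewer genes tested. With each library left out the counts ran from 230 to 656, 1 to 1804, 0 to 1, 0 to 115 and 46 to 258, and those of PC1 bins from 0 to 700 between depots (2609 with all) and from 6 to 1523 between breeds (11 with all, 22 after centring on the chromosome median).

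Same-numbered libraries of wild boar GOM and ULB deviated together with r = 0.16, and those of wild boar and Bama pig GOM with r = 0.162. The labels do not say that a number marks an animal, so it was taken only as a shared number. The replicate block gave 1623 calls between depots in wild boar, 15 between breeds in GOM and 1017 PC1 bins between depots, and called none of the 7 members measured in RNA or of the 8 placed ones. The 0 kb match of TAD ends between BM-GOM and BM-ULB held for 2 members in place of 5.

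Among members, uncalled values near 0 changed sign. FOXO1 between depots was -0.20 with the replicate block within breed and -0.14 to 0.57 with libraries left out. Between breeds FOXO1 was -0.052 with upper-quartile scaling, -0.12 on log2(TPM + 1), -0.013 with the GC trend taken out and -0.21 to 0.72 with libraries left out. INSR between breeds was -0.022 and IRS2 -0.089 on log2(TPM + 1), and INSR in GOM was -0.31 there. With libraries left out IRS2 between breeds was -0.020 to 0.49 and PIK3R1 -0.76 to 0.017. SLC2A4 between breeds was the only member called in any alternative, at 1.58 in DESeq2 and 2.39 without BM-GOM replicate 2.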
